A study of Mus musculus with 4 samples.

Results

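The fatty acid oxidation and PPAR genes are 37 genes of the 56393 in the deposited mouse table. They were chosen by name for their place in the pathway, with earlier results of these data known. They comprise 7 genes of the carnitine shuttle, 7 acyl-CoA dehydrogenases, 5 genes of the hydratase to thiolase steps, 4 auxiliary enzymes, 3 electron transfer genes, 5 peroxisomal genes, 5 PPAR and PGC-1 regulators and 1 uptake gene, Cd36. Expression was measured by RNA sequencing in MPC, a conditionally immortalised mouse podocyte line that proliferates at 33 °C with interferon-gamma and differentiates without it at 37 °C, here over 7 days. Podocytes are the epithelial cells that cover the glomerular capillaries. All 4 groups were differentiated MPC cells and had 1 library each. The sh-NC library came from cells with a control hairpin, and the sh-NC/HG library from such cells given D-glucose to a final 40 mmol/L. The sh-JAML library came from cells with a hairpin against Jaml, and the sh-JAML/HG library from those cells given the same glucose, for 24 h per the design text. The labels name 1 hairpin per target and no osmotic control, and do not say how many clones or cultures each library holds. The title of the series places the work in diabetic kidney disease and podocyte lipid metabolism, so the comparisons ask how the genes of fat burning stood in high glucose with and without the Jaml hairpin.

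Fatty acids enter mitochondria as acylcarnitines. The carnitine palmitoyltransferases make and unmake these esters on the outer and inner membranes, and a carrier moves them across. In the matrix, each turn of beta-oxidation runs through an acyl-CoA dehydrogenase, an enoyl-CoA hydratase, a hydroxyacyl-CoA dehydrogenase and a thiolase. Auxiliary isomerases and reductases prepare unsaturated chains, and the electron transfer flavoprotein passes electrons from the dehydrogenases to the respiratory chain. Peroxisomes shorten very long and branched chains with enzymes of their own. PPARs are nuclear receptors that bind fatty acids and, with RXR partners and PGC-1 coactivators, raise transcription of many of these genes. Podocytes are known to use fatty acids among their fuels, and lipid accumulation in them is described in diabetic kidney disease.

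The 4 libraries held 79330461 to 94341975 deposited counts, and 14187 genes averaged 50 counts or more per library. Levels are TMM-scaled CPM, and 4 values in a row are those of sh-NC, sh-NC/HG, sh-JAML and sh-JAML/HG, in that order. Ratios were taken in 4 pairs: the control glucose pair (sh-NC/HG over sh-NC), the sh-JAML glucose pair (sh-JAML/HG over sh-JAML), the basal hairpin pair (sh-JAML over sh-NC) and the high glucose hairpin pair (sh-JAML/HG over sh-NC/HG). Higher and lower refer to the first library of a pair. Each ratio has an exact 95% interval (Clopper-Pearson) in parentheses, which covers counting error only and leaves out variation between cultures. With 1 library per group, no pair has a p-value. Jaml, the target of the hairpin (chr9:45079183-45108534, mm10), had a count of 0 in all 4 libraries, so the hairpin labels could not be checked on it. Of the podocyte markers, Synpo, Nes, Actn4 and Cd2ap were well above the minimum, while Nphs1 and Ptpro, which encode slit diaphragm and foot process proteins, were under it. The summed podocyte list was 1540 to 2018 CPM and the tubule list 851 to 1334 CPM, both highest in sh-NC/HG. Lrp2, Cdh16 and Pax8 carried the tubule sum, and Slc34a1 and Umod were at 0. The mesangial list summed to 1219, 812, 864 and 870.5 CPM, with sh-NC the single high library and Itga8 and Ren1 at 0. Acta2 carried most of that sum, at 1069, 677, 729 and 742 CPM. The macrophage list summed to 86.9 to 98.8 CPM, with Ptprc and Adgre1 under the minimum. Csf1r and Cd14 carried most of it, and Lyz2 had 2.14, 3.02, 2.02 and 0.0591 CPM. The sh-JAML/HG value of Lyz2 is a count of 5, under the floor of 12 count units (3 sequenced fragments) set for a ratio. No adipocyte or endothelial marker passed the minimum, and their summed levels did not exceed 0.615 and 0.482 CPM. The part of these cell type signals in any result was not tested.

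The sh-NC/HG library differed from the rest across many genes. Of 14187 genes, 19.0% were at least 1.5-fold apart in either direction between sh-NC/HG and sh-NC, and 18.2% between sh-JAML/HG and sh-NC/HG. For the pairs without that library these shares were 7.75% between sh-JAML/HG and sh-JAML and 8.02% between sh-JAML and sh-NC. The 13 protein genes of the mitochondrial genome summed to 13422 CPM in sh-NC/HG against 19779 to 21213 CPM in the other libraries. Results that rest on sh-NC/HG are therefore given beside the pairs that do not hold it. Whether the glucose or something particular to that 1 culture or library set it apart cannot be told apart here.

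Upstream sequence is shown for Ppard and Acox3, the members with the highest and the lowest ratio of sh-NC/HG to sh-NC. A match to a PPAR element is shown for 3 more members, upstream of Echs1 and Etfa and inside the gene, just after the RefSeq start, for Slc25a20. The letters come from the RefSeq promoter table of build GRCm38.p6, which held 30 of the 37 members. Each line reads 5′ to 3′ on the strand of its gene. The Ppard line is chr17:28232504-28232699 (plus strand) and the Acox3 line chr5:35582784-35583033 (plus strand), both just before the annotated gene. The Echs1 line is chr7:140116472-140116524 (minus strand), the Etfa line chr9:55512288-55512340 (minus strand) and the Slc25a20 line chr9:108662142-108662154 (plus strand). Capitals mark the match to a PPAR and RXR element, AGGTCA 2 times in a row with 1 base of any kind between, searched on both strands with up to 2 mismatches outside the spacer.
Ppard: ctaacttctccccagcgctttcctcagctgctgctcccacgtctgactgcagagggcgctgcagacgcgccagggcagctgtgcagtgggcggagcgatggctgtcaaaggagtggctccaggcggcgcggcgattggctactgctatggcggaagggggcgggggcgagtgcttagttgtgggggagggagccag
Acox3: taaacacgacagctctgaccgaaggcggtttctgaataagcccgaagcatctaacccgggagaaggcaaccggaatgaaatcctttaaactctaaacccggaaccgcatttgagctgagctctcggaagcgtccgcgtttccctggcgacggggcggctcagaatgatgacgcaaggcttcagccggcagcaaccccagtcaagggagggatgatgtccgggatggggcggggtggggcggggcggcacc
Echs1: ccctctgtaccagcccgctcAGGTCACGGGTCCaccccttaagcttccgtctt
Etfa: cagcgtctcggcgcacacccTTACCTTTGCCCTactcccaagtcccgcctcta
Slc25a20: AGGTGAAAGGTCG

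The repeat was found in 4 of the 30 members with a promoter (Cd36, Echs1, Etfa and Slc25a20), against 3.86% of 32851 RefSeq promoters of the same 300 bases. A member was counted if any of its promoters matched (32 promoters for the 30 members), while the share over all counts single promoters. The Cd36 match lies within chr5:17835927-17835979, inside the annotated gene (chr5:17781690-17888801). No member held it with at most 1 mismatch, as 0.554% of all promoters did. The shorter element TCAAGGTCA, known from ERR receptors, was found with up to 1 mismatch in 1 of the 30, Acaa1b, against 7.46% of all promoters. The 2 searches share the letters AGGTCA and so overlap. The upstream stretch of Ppard shown was 66.8% G or C with 14 CpG, and that of Acox3 60% with 21 CpG. Over the 250 bases before the start, the 30 members had a median of 59.6% G or C (range 41.6 to 82.4), against 52.4% for all promoters.

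Of the 37 members, 33 had a mean count of at least 50 and entered the comparisons. Ehhadh, the bifunctional enzyme of peroxisomal oxidation, had counts of 0, 0, 12 and 0. Ppara, the PPAR that dominates in liver, had counts of 37, 27, 8 and 18. Pparg, the adipocyte PPAR, had 0, 0, 4 and 0, and Cd36, the fatty acid translocase, had 5, 13, 4 and 0. Ehhadh, Pparg and Cd36 were at or close to the floor of 12 count units (3 sequenced fragments) in every library, which corresponds to 0.129 to 0.151 CPM. Ppard was the 1 PPAR gene past the minimum. Of the 33, Cpt1b shared 81.4% of its exon bases with Gm44502, Etfb 58.3% with Gm45233, Acadvl 42.9% with Dvl2 and Acaa1b 11.4% with Dlec1, so the reads of these 4 can be split differently between neighbours.

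**Figure D1:**
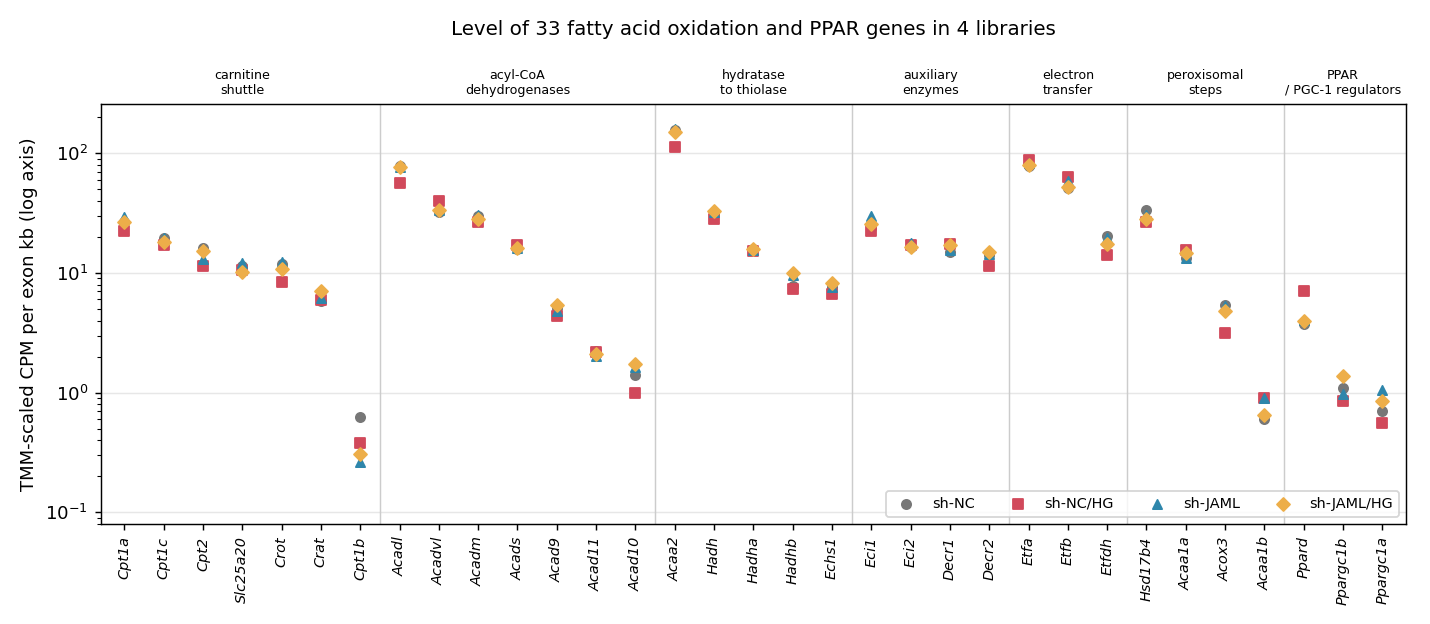
Level of each of the 33 members past the count minimum in the 4 libraries, as TMM-scaled CPM per kilobase of exon on a log axis, grouped by role. Each point is 1 library, Acaa2 had the highest mean level at 145 and Cpt1b the lowest at 0.394, and Ppard is the member whose sh-NC/HG point lies farthest above the others.

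Per kilobase of exon, the mean level over the libraries ran from 145 CPM for Acaa2 to 0.394 CPM for Cpt1b. After Acaa2 came Etfa at 82.0, Acadl at 72.0, Etfb at 56.2, Acadvl at 34.9 and Hadh at 31.2 CPM per kilobase. The regulators were lower than most enzymes on that scale, with Ppard at 4.69, Ppargc1b at 1.07 and Ppargc1a at 0.790 CPM per kilobase. The plot of levels by role shows that the libraries of 1 gene lay much closer together than the genes did. The highest library exceeded the lowest by a median of 1.27-fold over the 33 members, against 1.30-fold over all genes, and by 1.12-fold without sh-NC/HG, against 1.16-fold. All 4 libraries lay within 1.5-fold of each other for 26 of the 33 members (78.8%), against 69.2% of all genes.

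Among the carnitine shuttle genes, Cpt1a (chr19:3322334-3385733) encodes the liver form of the outer membrane transferase that commits fatty acids to oxidation. Its level was 203, 172, 224 and 205 CPM. It was 1.18-fold lower in the control glucose pair (1.12 to 1.23) and 1.09-fold lower in the sh-JAML glucose pair (1.05 to 1.14). With the Jaml hairpin it was 1.11-fold higher in basal glucose (1.06 to 1.16) and 1.19-fold higher in high glucose (1.14 to 1.24). Cpt1a was thus lower in the high glucose library of each hairpin and higher in the sh-JAML library of each glucose condition, each time by less than 1.2-fold.

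Cpt1c (chr7:44959372-44974851), the paralog best known from neurons, had 111, 95.5, 109 and 102 CPM. It was 1.16-fold lower in the control glucose pair (1.09 to 1.23) and 1.07-fold lower in the sh-JAML glucose pair (1.004 to 1.13). Cpt1b (chr15:89416405-89425863), the muscle form, was scarce at 2.10, 1.29, 0.885 and 1.04 CPM. It was highest in sh-NC, and the level in sh-JAML was 2.37-fold lower than there (1.33 to 4.35). Cpt1b was 1.63-fold lower in the control glucose pair (1.004 to 2.72), and 1.18-fold higher in the sh-JAML glucose pair (0.594 to 2.29), so its 2 glucose ratios pointed opposite ways with wide intervals. Per kilobase of exon, the mean levels of the 3 paralogs were 26.3 CPM for Cpt1a, 18.6 for Cpt1c and 0.394 for Cpt1b.

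Cpt2, the inner membrane transferase, had 38.9, 27.4, 31.5 and 36.2 CPM. It was 1.42-fold lower in the control glucose pair (1.27 to 1.58) and 1.15-fold higher in the sh-JAML glucose pair (1.03 to 1.28). Crot, which esterifies chains shortened in peroxisomes, was also 1.42-fold lower in the control glucose pair (1.30 to 1.54), and 1.14-fold lower in the sh-JAML glucose pair (1.06 to 1.23). The carrier gene Slc25a20, shown above with a repeat match just after its start, had 55.4, 51.6, 58.4 and 49.3 CPM. Crat, the acetyl transferase, had 31.3, 32.2, 33.2 and 38.02 CPM and was the only shuttle gene above 1 in the control glucose pair. Summed over the 7 shuttle genes, the sh-NC/HG level was 84.3% of that in sh-NC, and the other 2 libraries were at 104% and 97.0%.

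The acyl-CoA dehydrogenases take the first step of each turn, each for a range of chain lengths. Acadl (chr1:66830839-66863277), the long-chain enzyme and the member of this role with the most transcript per kilobase, had 157, 112, 155 and 153 CPM. It was 1.40-fold lower in the control glucose pair (1.33 to 1.48), against 1.01-fold lower in the sh-JAML glucose pair (0.964 to 1.06). The sh-NC/HG library was the single low one for Acadl, and the other 3 lay between 153 and 157 CPM. Acadvl, the very-long-chain enzyme, went the other way, at 87.5, 108, 90.6 and 89.6 CPM, with sh-NC/HG the single high library, though it shares exon bases with Dvl2. The medium-chain Acadm had 117, 104, 119 and 110 CPM, and the short-chain Acads 35.9, 38.7, 36.5 and 37.0 CPM.

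Acad10 (chr5:121621026-121660514), a dehydrogenase of less settled substrate, had 8.55, 5.99, 9.84 and 10.5 CPM. In high glucose it was 1.75-fold higher with the Jaml hairpin than with the control hairpin (1.41 to 2.18), and in basal glucose 1.15-fold higher (0.936 to 1.43). Acad10 was 1.43-fold lower in the control glucose pair (1.13 to 1.795) and 1.07-fold higher in the sh-JAML glucose pair (0.874 to 1.29). Acad9, also an assembly factor of respiratory complex I, had 41.6, 36.0, 39.1 and 43.9 CPM, and Acad11 was within 19.7 to 21.9 CPM in all libraries. Summed over the role, sh-NC/HG was at 90.7% of sh-NC.

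Of the genes of the hydratase to thiolase steps, 5 of 5 were below 1 in the control glucose pair, against 49.8% of all genes, and the intervals of Hadha and Hadhb held 1. Acaa2 (chr18:74779197-74806208), the mitochondrial thiolase that releases acetyl-CoA and the member with the highest level of all, had 239, 172, 243 and 227 CPM. It was 1.39-fold lower in the control glucose pair (1.33 to 1.45) and 1.07-fold lower in the sh-JAML glucose pair (1.03 to 1.11). In high glucose the sh-JAML library was 1.32-fold above the control (1.26 to 1.38), against 1.02-fold in basal glucose (0.977 to 1.06). The other 4 differed less between sh-NC/HG and sh-NC, by 1.05-fold for Hadha to 1.14-fold for Echs1.

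Hadha and Hadhb encode the alpha and beta subunits of the trifunctional protein, which carries out the last 3 steps on long chains. Hadha had 139, 132, 136 and 139 CPM. Hadhb had 51.7, 48.8, 63.9 and 65.5 CPM, with both sh-JAML libraries above both control libraries. For Hadhb the sh-JAML level was 1.24-fold higher in basal glucose (1.14 to 1.35) and 1.34-fold higher in high glucose (1.24 to 1.45), while for Hadha the corresponding ratios were 1.02-fold lower (0.963 to 1.07) and 1.05-fold higher (0.9996 to 1.11). The basal ratio of Hadha was above 1 when unscaled totals were used, that of Hadhb under every scaling run. Hadh, the short-chain hydroxyacyl-CoA dehydrogenase, had 154, 141, 162 and 164 CPM, and Echs1, the short-chain hydratase with a repeat match upstream, 63.3, 55.6, 63.4 and 68.7 CPM.

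Of the auxiliary enzymes for unsaturated chains, Eci1 (chr17:24426641-24439348), a mitochondrial isomerase, had 50.6, 48.1, 63.2 and 54.8 CPM. Both sh-JAML libraries were above both control libraries, by 1.25-fold in basal glucose (1.15 to 1.36) and 1.14-fold in high glucose (1.05 to 1.24). The second isomerase, Eci2, stayed within 91.2 to 98.9 CPM. Decr1, the mitochondrial dienoyl-CoA reductase, had 57.7, 67.6, 60.3 and 66.7 CPM and was higher in the high glucose library of each hairpin, by 1.17-fold (1.09 to 1.27) and 1.11-fold (1.02 to 1.19). Decr2, its peroxisomal counterpart, had 37.5, 30.2, 38.2 and 39.7 CPM, lowest in sh-NC/HG.

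Etfa (chr9:55454508-55512243) and Etfb encode the subunits of the electron transfer flavoprotein, and Etfdh the oxidoreductase that takes electrons from it. Etfa had 145, 160, 151 and 146 CPM, 1.11-fold higher in the control glucose pair (1.05 to 1.16). Etfb had 59.2, 73.8, 67.9 and 61.0 CPM, 1.25-fold higher in the control glucose pair (1.16 to 1.34), but shares most of its exon bases with Gm45233. Etfdh had 152, 107, 146 and 132 CPM, 1.42-fold lower in the control glucose pair (1.34 to 1.49). In sh-NC/HG both flavoprotein subunits were thus at their highest and their partner at its lowest. Between sh-JAML/HG and sh-JAML all 3 were lower in high glucose, by 1.04-fold for Etfa (0.988 to 1.09) and 1.11-fold for both Etfb (1.03 to 1.20) and Etfdh (1.05 to 1.17).

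Among the peroxisomal genes, Acox3 (chr5:35583040-35615352) encodes an acyl-CoA oxidase of branched chains. It had 62.5, 36.3, 60.5 and 55.2 CPM. Acox3 was 1.72-fold lower in the control glucose pair (1.58 to 1.88), the lowest such ratio of the 33, and 1.10-fold lower in the sh-JAML glucose pair (1.01 to 1.19). In high glucose the sh-JAML library was 1.52-fold above the control library (1.39 to 1.66), and in basal glucose 1.03-fold below it (0.955 to 1.12). The sh-NC/HG library was the single low one, and the other 3 lay within 55.2 to 62.5 CPM.

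Hsd17b4 (chr18:50128201-50196269), the multifunctional enzyme of the next peroxisomal steps, had 115, 90.5, 104 and 95.7 CPM. It was lower in the high glucose library of each hairpin, by 1.27-fold (1.19 to 1.34) for sh-NC and 1.09-fold (1.02 to 1.15) for sh-JAML. Acaa1a, a peroxisomal thiolase, had 58.6, 68.1, 59.4 and 65.3 CPM and was higher in both high glucose libraries. Its close paralog Acaa1b was scarce at 1.17, 1.77, 1.78 and 1.28 CPM. All 4 intervals of Acaa1b ratios held 1, including those of 1.51-fold higher in the control glucose pair (0.890 to 2.65) and 1.52-fold higher in the basal hairpin pair (0.894 to 2.74). The paralogs can share reads, so the Acaa1b values are uncertain.

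The regulators held the highest glucose ratio among the members. Ppard (chr17:28232700-28301474) encodes PPAR-delta, the PPAR found in most tissues. Its level was 27.9, 52.8, 30.5 and 29.9 CPM. The sh-NC/HG library was alone in being high. Ppard was 1.89-fold higher in the control glucose pair (1.71 to 2.09) and 1.02-fold lower in the sh-JAML glucose pair (0.912 to 1.14). In high glucose it was 1.77-fold lower with the Jaml hairpin (1.60 to 1.95), against 1.09-fold higher in basal glucose (0.971 to 1.23). The log2 glucose ratio was 0.92 for sh-NC and -0.03 for sh-JAML, a difference of -0.95 (sh-JAML minus sh-NC) that no residual degree of freedom is left to test.

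Ppargc1a (chr5:51454250-51567726) encodes PGC-1 alpha, a coactivator of PPARs and of mitochondrial biogenesis. It had 4.60, 3.69, 6.95 and 5.59 CPM, with both sh-JAML libraries above both control libraries. The sh-JAML level was 1.51-fold higher in basal glucose (1.15 to 1.98) and 1.52-fold higher in high glucose (1.14 to 2.02). Ppargc1a was 1.25-fold lower in the control glucose pair (0.925 to 1.704) and 1.24-fold lower in the sh-JAML glucose pair (0.972 to 1.61), and both intervals held 1. Ppargc1b (chr18:61298136-61400431), its paralog, had 4.39, 3.36, 3.85 and 5.44 CPM. In high glucose Ppargc1b was 1.62-fold higher with the Jaml hairpin (1.21 to 2.20), while in basal glucose it was 1.14-fold lower (0.829 to 1.57). Ppargc1b was 1.30-fold lower in the control glucose pair (0.953 to 1.8), an interval that held 1, and 1.41-fold higher in the sh-JAML glucose pair (1.05 to 1.92), the highest ratio of the 33 in that pair.

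**Figure D2:**
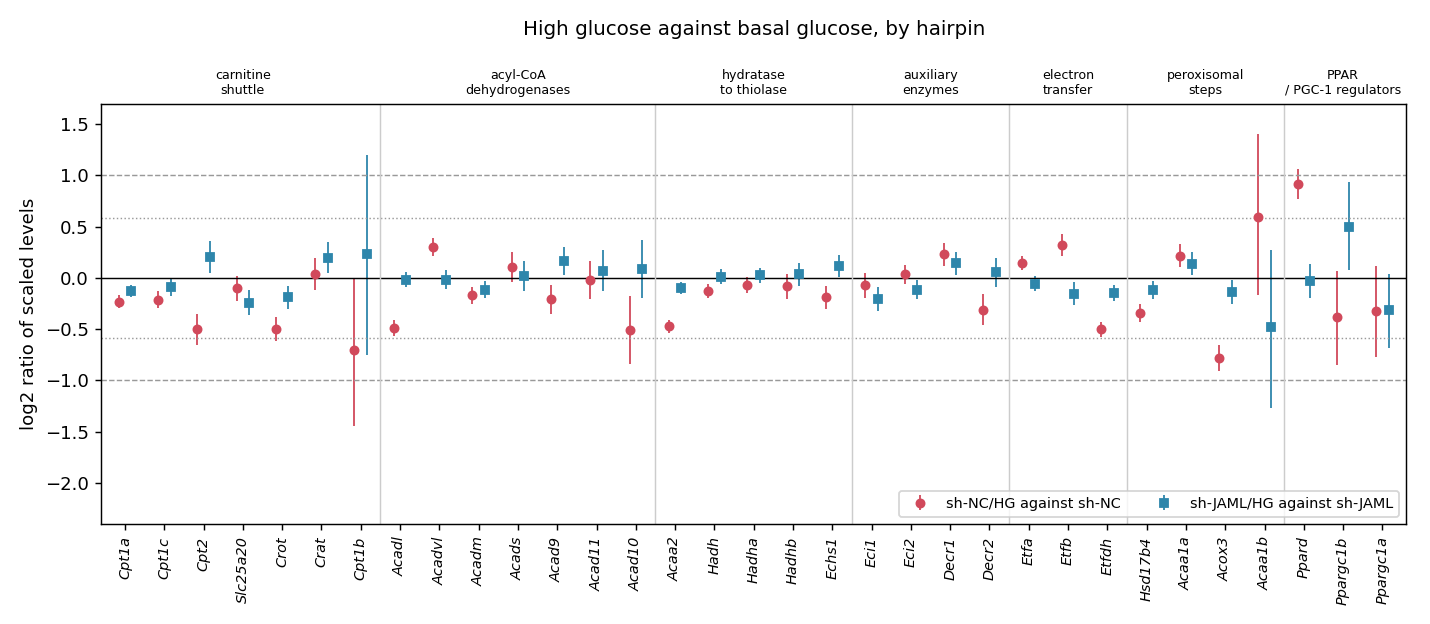
Log2 ratio of high to basal glucose for each of the 33 members, in sh-NC (circles) and sh-JAML (squares), with exact 95% counting intervals; dotted lines mark 1.5-fold and dashed lines 2-fold. In sh-NC, 23 of 33 points lie below 0, Ppard is the highest at 0.92 and Acox3 the lowest at -0.78, while the sh-JAML points lie between -0.48 and 0.50.

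For the members as a group, the median log2 ratio of sh-NC/HG to sh-NC was -0.17, against 0.00 over all 14187 genes. Of the 33, 23 were below 1 in that ratio, against 49.8% of all genes, and 10 were above. At 2-fold, 0 members were higher and 0 lower, where 4.65% and 3.27% of all genes were. At 1.5-fold, 2 members were higher (Ppard and Acaa1b) and 2 lower (Acox3 and Cpt1b), against 10.0% and 8.98% of all genes, so the members were no more often this far apart than genes at large. The counting interval excluded 1 for 22 of the 33, against 57.5% of all genes, with 6 above and 16 below. A counting interval narrows as the count grows, so this share depends on expression level as well as on the ratio.

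Between sh-JAML/HG and sh-JAML, the median of the members was -0.02 and the range -0.48 to 0.50. In that pair 18 of 33 were below 1, against 50.1% of all genes. No member was 2-fold or 1.5-fold apart in either direction, where 1.31% and 1.56% of all genes were 2-fold higher and lower, and 3.57% and 4.18% were so at 1.5-fold. The interval excluded 1 for 19 of 33 members, against 32.5% of all genes, with 7 above and 12 below. Set side by side, the 2 glucose pairs share no library. In both, 12 members were lower and 4 higher in high glucose, and 17 of 33 went opposite ways, against 25.7%, 25.7% and 48.6% of all genes.

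**Figure D3:**
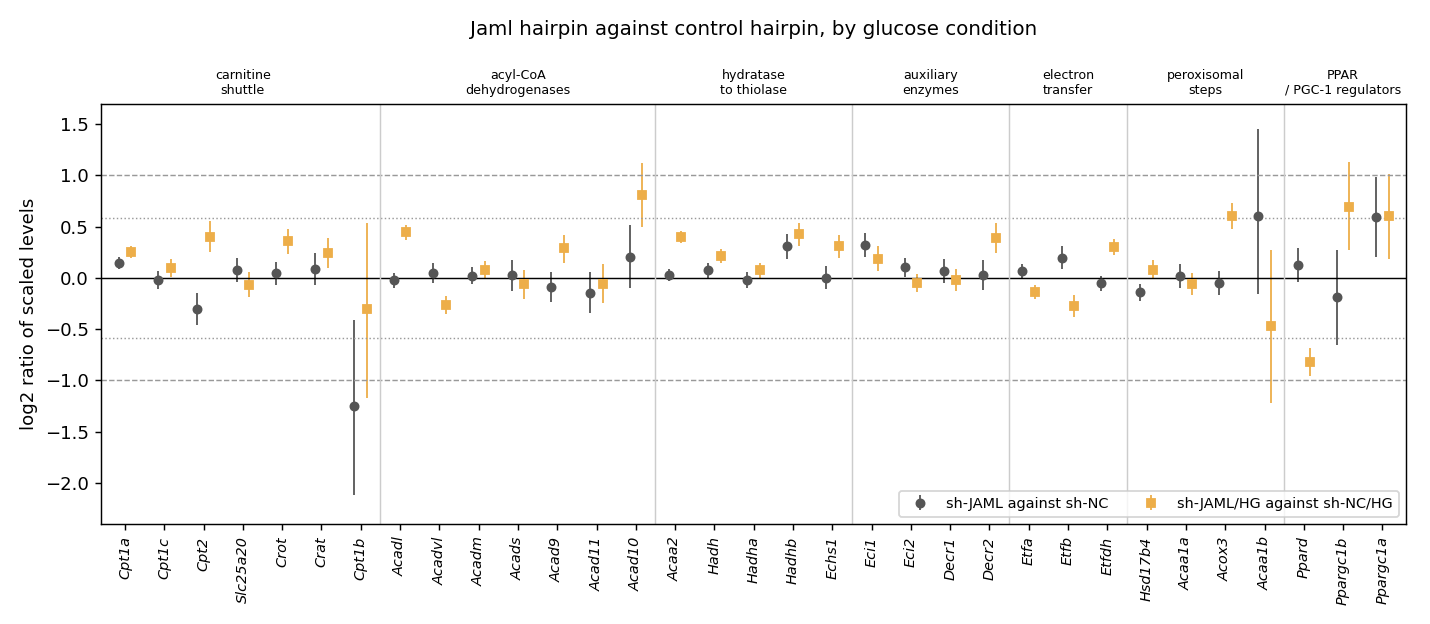
Log2 ratio of the Jaml hairpin to the control hairpin for each of the 33 members, in basal glucose (circles) and in high glucose (squares), with exact 95% counting intervals; dotted lines mark 1.5-fold and dashed lines 2-fold. Ppargc1a and Hadhb lie above 0 in both pairs, while Ppard lies near 0 in basal glucose and at -0.82 in high glucose.

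In basal glucose, the median log2 ratio of sh-JAML to sh-NC was 0.03 over the members, and 22 of 33 were above 1, against 50.3% of all genes. At 2-fold 1 member was lower (Cpt1b) and 0 were higher, against 1.40% and 1.31% of all genes. At 1.5-fold 2 were higher (Ppargc1a and Acaa1b) and 1 lower (Cpt1b), against 4.12% and 3.90%. The interval excluded 1 for 10 of 33 members, against 30.9% of all genes, which is about the background share.

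In high glucose, the median log2 ratio of sh-JAML/HG to sh-NC/HG was 0.19, and 21 of 33 members were above 1, against 50.3% of all genes. None was 2-fold apart, against 2.81% higher and 4.78% lower over all genes. At 1.5-fold 4 were higher (Acad10, Ppargc1b, Ppargc1a and Acox3) and 1 lower (Ppard), against 8.36% and 9.86% of all genes. The interval excluded 1 for 22 of 33, against 57.5%, with 18 above and 4 below. This pair shares the sh-NC/HG library with the control glucose pair, so the 2 sets of values are not separate evidence. Over both hairpin pairs, which share no library, 12 members were higher and 2 lower with the Jaml hairpin each time, against 26.3% and 25.6% of all genes.

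**Figure D4:**
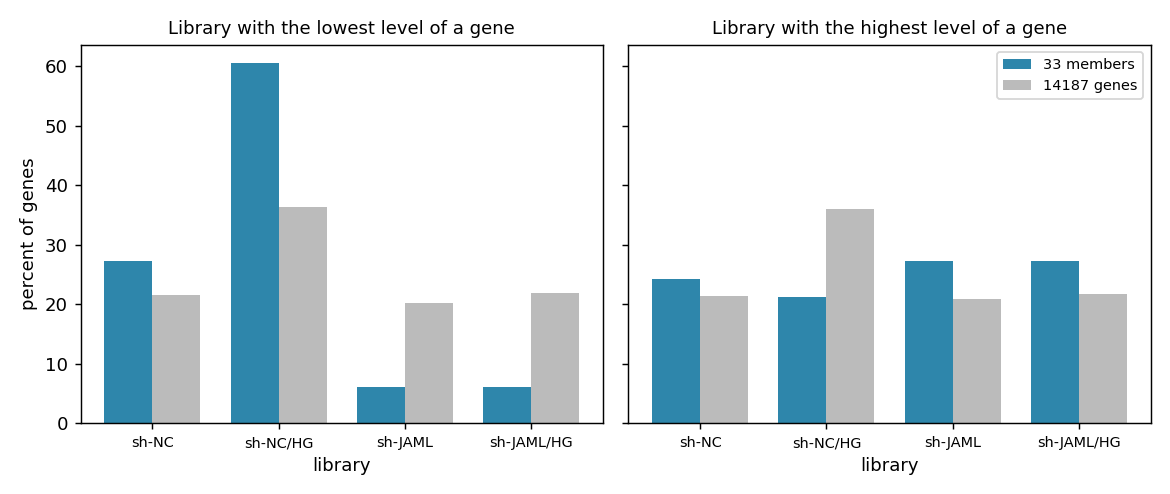
Percent of genes for which each library held the lowest (left) or the highest (right) level, for the 33 members and for all 14187 genes past the count minimum. The sh-NC/HG library was lowest for 60.6% of members and 36.4% of all genes, and highest for 21.2% and 36.0%.

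The sh-NC/HG library held the lowest level for 20 of the 33 members (60.6%), against 36.4% of all genes, and the highest for 7 (21.2%), against 36.0%. The sh-NC library was lowest for 9 members, and each sh-JAML library for 2. Without sh-NC/HG, the lowest of the 3 remaining libraries was sh-NC for 17, sh-JAML/HG for 10 and sh-JAML for 6, against 33.9%, 34.6% and 31.5% of all genes. Summed over all 37 members, the level was 2490, 2240, 2556 and 2469 CPM, which puts sh-NC/HG at 89.9% of sh-NC. By role, sh-NC/HG ran from 83.0% of sh-NC for the peroxisomal genes to 101% for the auxiliary enzymes among the enzyme groups, and stood at 161% for the regulators through Ppard. The lower mitochondrial-genome sum in the same library, 67.9% of sh-NC, moved with these values, and its part in them was not tested.

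The additive model, with terms for glucose and hairpin over the 4 libraries and 1 residual degree of freedom, called none of the 33 members for either term (edgeR quasi-likelihood test, Benjamini-Hochberg threshold 0.05). Over all 14187 genes it called 1 (0.00705%) for glucose and 0 for hairpin, with 397 (2.80%) and 400 (2.82%) at an unadjusted p under 0.05. DESeq2 called 53 genes (0.374%) and 48 (0.338%), and limma-voom 0 for both, with 0 members in each. The lowest adjusted p among the members was 0.927 for glucose and 0.933 for hairpin by edgeR. At an unadjusted p under 0.05 stood 0 members for glucose and 1 for hairpin, Hadhb, which was higher in both sh-JAML libraries (unadjusted p = 0.0307, adjusted p = 0.933). The error of the glucose term is the disagreement of the glucose differences between the hairpins. That of the hairpin term is the disagreement of the hairpin differences between the glucose conditions. A difference seen in 1 hairpin only therefore goes partly into the term and partly into the error. For Ppard the edgeR glucose term was 0.44 on the log2 scale, against 0.92 in the control glucose pair. The lack of called members does not show that their levels were equal, and variation between cultures is not measured.

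The other genes known as PPAR targets stood lower in sh-NC/HG as well. This list too was chosen with earlier results of these data known. Of 24 listed, 13 passed the count minimum. In the ratio of sh-NC/HG to sh-NC, 12 of these were below 1, against 49.8% of all genes. Their median log2 ratio was -0.53, against 0.00 over all genes. At 1.5-fold 6 of the 13 were lower and 0 higher, against 8.98% and 10% of all genes. At 2-fold 2 were lower, against 3.27% of all genes. Plin4, a lipid droplet coat protein, had 11.2, 2.88, 9.32 and 13.3 CPM, 3.88-fold lower in the control glucose pair (2.95 to 5.19) and 1.43-fold higher in the sh-JAML glucose pair (1.18 to 1.72). Pdk4, the kinase that restrains pyruvate dehydrogenase, had 2.12, 1.06, 2.77 and 2.41 CPM, 2.003-fold lower in the control glucose pair (1.17 to 3.38), and just under 2-fold once the prior count of 1 was added. Both had sh-NC/HG as the single low library.

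Angptl4, a secreted inhibitor of lipoprotein lipase, had 4.66, 2.11, 5.25 and 2.80 CPM. It was lower in the high glucose library of each hairpin, by 2.21-fold for sh-NC (1.56 to 3.22) and 1.87-fold for sh-JAML (1.35 to 2.63). Angptl4 thus differed from Plin4 and Pdk4 in that its lower level was not limited to sh-NC/HG. Aqp7, a glycerol channel, had 10.1, 6.27, 13.2 and 11.97 CPM, lowest in sh-NC/HG. Plin2 and Me1, named after their values were seen, encode a ubiquitous droplet coat protein and malic enzyme. Plin2 had 303, 170, 259 and 275 CPM, and Me1 had 72.0, 44.9, 73.3 and 72.9 CPM, again with sh-NC/HG alone in being low. These targets were lowest in the library where Ppard was highest, as the plot of Ppard and the listed PPAR targets shows. They are listed as targets of PPARs and not of Ppard alone, and any link to Ppard was not tested.

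**Figure D5:**
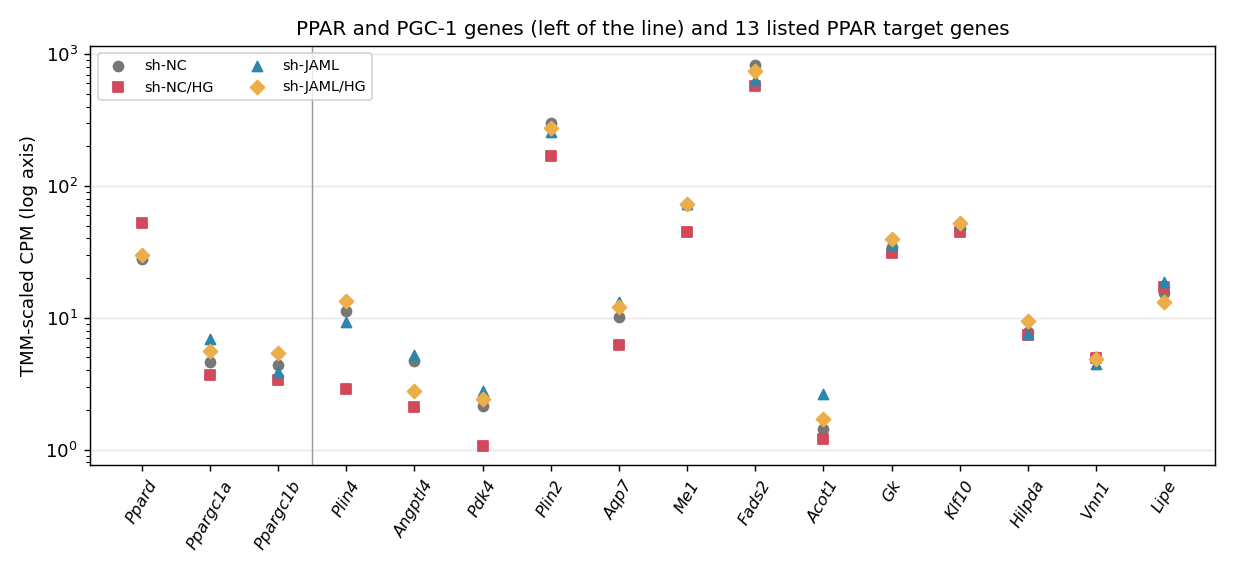
Level of Ppard, Ppargc1a and Ppargc1b and of the 13 listed PPAR target genes past the count minimum, as TMM-scaled CPM on a log axis, with 1 point per library. Ppard is highest in sh-NC/HG at 52.8 CPM, while Plin4, Pdk4, Plin2, Aqp7 and Me1 are lowest there.

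Between sh-JAML/HG and sh-JAML, the median of the 13 targets was 0.02 and 2 were at least 1.5-fold lower, Angptl4 and Acot1, against 4.18% of all genes. Acot1, a cytosolic acyl-CoA thioesterase, had 1.42, 1.20, 2.64 and 1.71 CPM and was 1.86-fold higher in the basal hairpin pair (1.17 to 3.08). In high glucose 11 of the 13 were higher with the Jaml hairpin, against 50.3% of all genes, with a median log2 ratio of 0.41. At 1.5-fold 5 were higher, against 8.36% of all genes, led by Plin4 at 4.61-fold (3.53 to 6.13) and Pdk4 at 2.27-fold (1.37 to 3.79). In basal glucose the median was 0.05. The high glucose hairpin pair holds the low sh-NC/HG library, and the basal hairpin pair does not. For Plin4, sh-JAML/HG was also the highest library, at 13.3 CPM against 9.32 CPM in sh-JAML.

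Among 18 of 19 listed PPAR partners and coregulators past the minimum, 2 were at least 1.5-fold lower in the control glucose pair and 0 higher, against 8.98% and 10.0% of all genes, so the lower count was near the background. Tbl1xr1, a subunit of the nuclear receptor corepressor complex, had 45.8, 21.7, 49.95 and 33.7 CPM. It was lower in both high glucose libraries, by 2.10-fold for sh-NC (1.89 to 2.35) and 1.48-fold for sh-JAML (1.34 to 1.63). Lpin1, a phosphatidate phosphatase that also acts as a PGC-1 alpha partner, had 69.0, 41.9, 68.0 and 71.5 CPM, with sh-NC/HG the single low library. Of the 10 AMPK and malonyl-CoA genes past the minimum, 1 was lower and 1 higher at that size, again near these shares. Prkaa2, a catalytic AMPK subunit, had 49.6, 25.8, 53.2 and 41.9 CPM, 1.92-fold lower in the control glucose pair (1.74 to 2.13) and 1.27-fold lower in the sh-JAML glucose pair (1.16 to 1.39). Acacb, which makes the malonyl-CoA that blocks carnitine palmitoyltransferase, had 3.21, 4.84, 3.25 and 4.79 CPM, and was higher in high glucose by 1.51-fold for sh-NC (1.10 to 2.08) and 1.47-fold for sh-JAML (1.07 to 2.05).

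Unlike Acox3, 9 of the 17 other peroxisomal genes past the minimum were above 1 in the control glucose pair, against 50.2% of all genes. At 1.5-fold 0 were lower and 2 higher, against 8.98% and 10.0% of all genes. Acox2, an oxidase of bile acid intermediates and branched chains, was scarce at 0.289, 1.39, 0.249 and 0.331 CPM, 4.82-fold higher in the control glucose pair (1.87 to 13.3). Of the 12 listed mitochondrial biogenesis genes, 1 was at least 1.5-fold apart between sh-NC/HG and sh-NC, against 19.0% of all genes. It was Tfb1m, a mitochondrial rRNA methyltransferase, at 5.92, 9.25, 7.20 and 8.43 CPM. None of the 11 activation and uptake genes, 17 further mitochondrial oxidation genes and 4 ketone body genes past the minimum was 1.5-fold apart in any of the 4 pairs. Over all genes, 19.0% and 7.75% were so in the control and sh-JAML glucose pairs. In the basal and high glucose hairpin pairs these shares were 8.02% and 18.2%.

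The 13 protein genes of the mitochondrial genome encode respiratory chain subunits downstream of the electron transfer genes. All 13 were lower in the control glucose pair, against 49.8% of all genes, with a median log2 ratio of -0.74. The size was uneven, and mt-Co1 differed least, at 5056, 4912, 5127 and 4953 CPM. The lowest ratio was that of mt-Nd2, a complex I subunit, at 1143, 388, 1196 and 1281 CPM. It was 2.95-fold lower in the control glucose pair (2.88 to 3.02) and 1.07-fold higher in the sh-JAML glucose pair (1.05 to 1.09). Between sh-JAML/HG and sh-JAML, 9 of the 13 were above 1, against 49.9% of all genes, and the lowest log2 ratio was -0.13. Their summed level in sh-NC/HG was 67.9% of sh-NC, against 89.9% for the 37 nuclear genes of fatty acid oxidation and PPARs.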

How the data were processed

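RNA of 4 MPC libraries, 1 per group, was sequenced. Reads were processed with CASAVA 1.8 and TopHat2 2.0.6 on mm10, per the submitters' processing notes. The counter and its annotation were not given in the sources used. The authors deposited 1 table of estimated counts, with 1 row per Ensembl gene and no scaling. The table's control and high glucose columns name no hairpin and were taken as sh-NC and sh-NC/HG. The series design counts 4 treated plus 4 untreated samples, and the values here come from 4 libraries.

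Genes at counts of 4, 8 and 12 were 1.51 to 2.10 times as frequent as at even counts beside them, so 1 fragment was set to 4 units in intervals and in the floor of 3 fragments. Symbols, positions and exon overlaps came from GENCODE M21 (55480 genes matched, 913 not). The estimated counts, which are whole numbers as deposited, were scaled by TMM (R 4.3.3, edgeR 4.0.16), with a prior count of 1 and a minimum mean count of 50. Ratios used 2-fold and 1.5-fold as sizes. The additive model used edgeR's quasi-likelihood test with Benjamini-Hochberg adjustment, was tested on simulated data, and was repeated with DESeq2 1.42.0 and limma 3.58.1 (voom). Python 3.11.15 with scipy 1.17.1, pandas 2.3.3, numpy 2.4.6 and matplotlib 3.10.9 gave the rest.

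The members and all gene lists were chosen with earlier results of these data known. Full values are given for members 1.5-fold apart in any pair, the regulators, the Cpt1 genes and the highest member per kilobase of each role; further members were added for their role. Of other lists, up to 3 highest and 3 lowest genes at 1.5-fold per pair are named. Some genes that this rule takes are not reported here. Alternatives were DESeq2 size factors, unscaled totals, other count minimums, a prior count of 5 and leaving out members that share at least 10% of exon bases.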

Additional observations from a re-analysis of the deposited data

How the results depend on the processing

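With 1 library per group, no spread between cultures is known, no library can be left out of a pair, and every ratio describes 2 libraries. No paired analysis was possible because the labels carry no replicate numbers and each group had 1 library. Of the 132 member ratios, 5 crossed 1 under another scaling, all within 0.03 of 0 on the log2 scale. With unscaled totals these were Cpt1c (0.01), Acadl (0.01) and Hadha (0.01) for sh-JAML against sh-NC and Decr1 (0.01) for sh-JAML/HG against sh-NC/HG, and with DESeq2 size factors Echs1 for sh-JAML against sh-NC. Of the summary values under alternatives, 114 of 140 stayed within 1.5 times.

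The remaining 26 were small counts of members, or model counts. With no count minimum, which adds the 4 scarce members, sh-NC/HG against sh-NC had 1 member 2-fold higher. Under that setting sh-JAML/HG against sh-JAML had 1 higher and 3 lower at both 2-fold and 1.5-fold, sh-JAML against sh-NC had 2 higher and 2 lower at 2-fold and 4 higher and 2 lower at 1.5-fold, and sh-JAML/HG against sh-NC/HG had 1 lower at 2-fold and 2 at 1.5-fold. With a mean count of at least 10, sh-JAML/HG against sh-JAML had 1 higher at both sizes and sh-JAML against sh-NC 2 lower at both. With a prior count of 5, members 1.5-fold higher numbered 1 in sh-NC/HG against sh-NC and 1 in sh-JAML against sh-NC. Without members sharing at least 10% of exon bases, sh-NC/HG against sh-NC had 1 higher (Ppard) and 1 lower (Acox3) at 1.5-fold, and sh-JAML against sh-NC had 0 lower at 2-fold and 1 higher and 0 lower at 1.5-fold. The additive model called 53 genes for glucose by DESeq2, 0 by limma-voom and 0 without a count minimum, against 1 by edgeR, and 48 for hairpin by DESeq2, against 0; none was a member. The cause was not tested where it is not given by fewer or more genes entering.

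Leaving out sh-NC/HG, chosen after its values were seen, lowered the members' median spread over libraries from 1.27-fold to 1.12-fold. The ERR element search was also added after the data were seen. Depth limits Cpt1b, Acaa1b, Ppargc1a and Ppargc1b most, and the 4 members under the minimum could not be compared.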
